A study of Arabidopsis thaliana with 6 samples.

Results

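The 10 h salicylic acid (SA) array compared Arabidopsis thaliana plants treated with 5 mM SA for 10 h with untreated plants. It was taken by its title and is 1 array of the 6 in the series and 1 of the 4 that follow SA over time, the others being at 2, 5 and 24 h. All plants on these 4 arrays were of the Columbia accession, 28 days old and sampled without the root. RNA of the untreated plants carried the Cy3 dye and RNA of the treated plants Cy5, and the dyes were never swapped. The labels call the controls untreated and name no mock treatment, and they give neither the hour of day of sampling nor whether the 4 arrays shared a control RNA. The other 2 arrays compared plants overexpressing SIBA, the gene called SIB1 below, with vector control plants of the same age. The labels name these plants CA32F3 and CA32F4 and give no promoter. With 1 array per time there was no replicate, so every value below is a size without a test, and differences between times are differences between arrays. A value is a log2 ratio of treated over untreated unless stated otherwise, and a probe is counted as higher or lower at a ratio of at least 2-fold, a log2 ratio of 1.

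SA is the hormone of defence against biotrophic pathogens. In Arabidopsis most of it is made in the plastid from chorismate by isochorismate synthase, exported by EDS5 and conjugated by PBS3. It is perceived by the NPR proteins, of which NPR1 works with TGA transcription factors to switch on WRKY factors and pathogenesis-related (PR) genes such as PR1. NPR1 is also known in Arabidopsis to act on genes of the endoplasmic reticulum (ER) and the secretory pathway, through which PR proteins leave the cell. High SA is known to slow growth, and defence output in leaves varies with the circadian clock.

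At 10 h, 1568 of 21475 probes (7.30%) were at least 2-fold higher in the treated plants and 951 (4.43%) were at least 2-fold lower. The shares were 6.09% and 3.66% on the 5 h array, 3.84% and 2.31% on the 2 h array, and 5.31% and 5.63% on the 24 h array. Each list count at 10 h below is to be read beside the 10 h shares of all probes. The 5 h array had more large upward ratios than the 10 h array. Probes at least 4-fold higher numbered 255, 422 and 227 at 2, 5 and 24 h, and 44, 60 and 11 passed 16-fold upward. At 10 h the larger responses were upward: 398 probes were at least 4-fold higher and 129 at least 4-fold lower, and 31 against 1 passed 16-fold. The split depended on the centring, and with each array centred on its median in place of the loess curve 2198 probes were higher and 723 lower, a share of 75.2% higher against 62.2%. The 10 h array was brighter than the 2 h array, with a median net signal of 174 in Cy3 and 300 in Cy5 against 60 and 21.5, and the treated channel lacked the mark for a signal well above background at 5746 probes at 2 h against 955 at 10 h. At 24 h the scanner software had marked 1722 spots as outliers, against 25 at 10 h, and these were left out. The middle 50% of log2 ratios spanned 0.522 at 10 h, against 0.272, 0.327 and 0.494 at 2, 5 and 24 h. The offset of 50 added to both dyes in processing draws the ratios of dim spots toward 0, most of all on the 2 h array. How much of the narrow spread at 2 h comes from it was not tested. Of the probes counted as higher at 10 h, 70 had an untreated signal near background. For such genes named below the fold is given as a lower bound, which for PRR3, AT4G33980 and Hop3 equals the ratio. The scanner software's own error of a log2 ratio, which covers the spread within a spot and not between plants, had a median of 0.181 at 10 h.

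**Figure D1:**
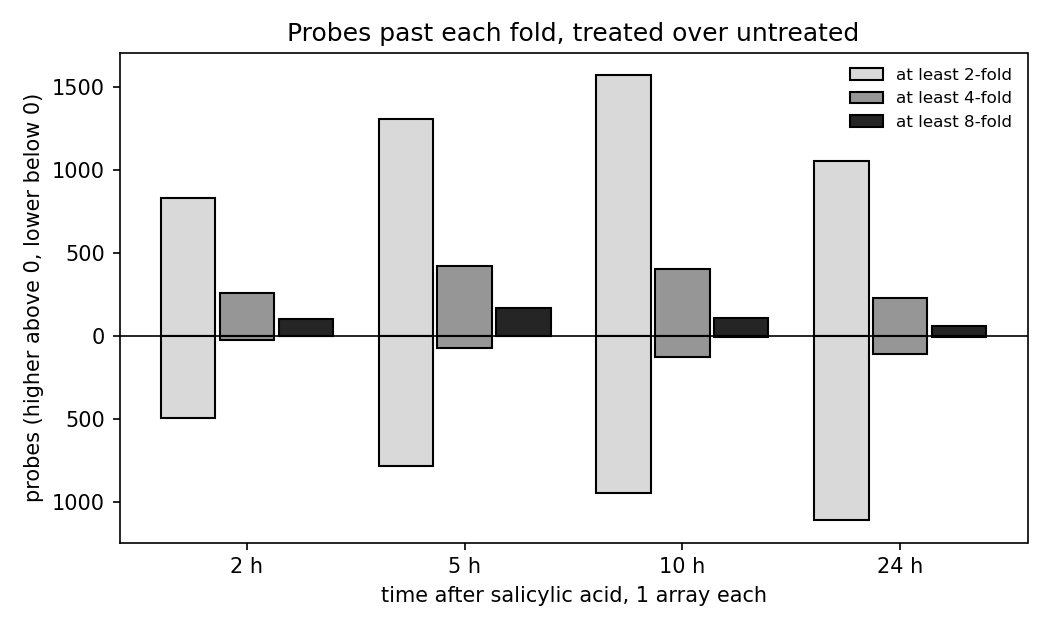
Number of probes at least 2-fold, 4-fold and 8-fold higher or lower in SA-treated than in untreated plants at 2, 5, 10 and 24 h. There is 1 array per time and so no error bars. Among the 2-fold bars the 10 h array has the tallest for higher probes (1568) and the 24 h array the tallest for lower probes (1113). Among the 4-fold and 8-fold bars for higher probes 5 h is the tallest (422 and 165, against 398 and 107 at 10 h).

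The tissue was checked against marker lists. All 7 leaf markers were above background in the untreated channel at 10 h, with net Cy3 signals of 1124 to 65144. Of 7 flower markers 5 were above background, none brighter than 78, and of 8 seed markers 3 were, none brighter than 79. Of 8 root markers 6 were above background although the labels exclude roots: the phosphate transporter gene PHT1;1 had a net Cy3 signal of 1831, the beta-glucosidase gene PYK10 846, the Casparian strip gene CASP1 738 and the root patterning gene SHR 494, while the root iron and nitrate transporter genes IRT1 and NRT2:1 were near background. The log2 ratios of the root list ran from 0.10 for NRT2:1 to -1.60 for PYK10, and their part in the results was not tested.

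The highest ratios at 10 h belonged largely to genes that already stood high at 2 and 5 h. AT4G01870, which the array annotates only as a hypothetical protein, had log2 ratios of 7.17, 7.17, 5.79 and 4.58 at 2, 5, 10 and 24 h, the 5 h value being a lower bound because the treated spot was saturated. Its net signal at 10 h was 308 in untreated and 28856 in treated plants, a 55.3-fold difference with a scanner error of 0.488 on the log2 scale. PCR1, a gene of the plant cadmium resistance family, followed another course, with 1.45, 4.93, 5.60 and 4.98. Glycosyltransferase genes included UGT74E2, which glucosylates the auxin precursor indole-3-butyric acid (5.50, 5.83, 5.24 and 2.91 over the 4 times), UGT76B1, which glucosylates isoleucic acid and SA (5.20, 5.32, 4.94 and 4.01), and UGT85A1 (5.40, 5.77, 4.31 and 3.16). Genes of redox and detoxification included the glutaredoxin gene GRXS13 (4.78, 5.61, 4.72 and 3.64) and the glutathione S-transferase genes GSTU24, 4.56 at 10 h, and GSTU4, 4.40 at 10 h. Genes of SA signalling and stress included NIMIN1, whose product binds NPR1 (4.61, 5.34, 4.88 and 3.74), the small heat shock gene AT1G53540 (3.81, 4.37, 4.78 and 3.13), HR4, a relative of the mildew resistance gene RPW8 (3.92, 5.45, 4.46 and 3.89), and BT2, a BTB domain scaffold (3.73, 4.21, 4.53 and 1.90). Of the 15 highest genes, GSTU4, BIP3, AT5G23240 and AT2G33830 had other time courses. GSTU4 read 0.90 at 2 h and was at least 23.9-fold higher at 5 h, its untreated signal there being near background, and BIP3 and AT5G23240 are described below. AT2G33830, which the array annotates as an auxin-regulated protein, read 4.29, 1.08, 4.53 and -0.50 and was thus high at 2 and 10 h.

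Genes that make SA were past their highest ratio at 10 h. Of 11 genes of SA and pipecolic acid synthesis and its regulation, 5 were at least 2-fold higher at 10 h and 0 lower, with a median of 0.45 against 1.2 at 5 h. The highest time was 10 h in 1 of the 10 with values at all times, beside 29.7% of all probes. EDS16, the isochorismate synthase gene ICS1, read 0.49, 2.65, -0.21 and -0.37 at the 4 times, with net signals at 10 h of 127 in untreated and 150 in treated plants. PBS3 had the same shape, with 0.14, 3.35, 0.45 and 0.95. Both genes were thus more than 4-fold higher at 5 h and under 2-fold at 10 h. The exporter gene EDS5 (1.72, 2.63, 1.14 and 1.14) and CBP60G, a transcription factor gene that acts on ICS1 (1.47, 1.81, 1.41 and 1.65), were still above 2-fold at 10 h, as was SARD1, its close relative (1.2 at 10 h).

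Genes of SA perception and signalling stood higher at 10 h than genes of SA synthesis, with a median of 0.92 over 16 genes against 0.42 at 5 h and 0.44 at 24 h, and 7 were at least 2-fold higher and 0 lower. NPR1 itself was close to level over time, at 0.86, 1.23, 1.11 and 1.32. NPR3, an SA receptor that acts on NPR1 as an adaptor for its degradation, had 1.67, 2.29, 2.70 and 0.82. PAD4, a lipase-like defence regulator, had 1.84, 3.49, 2.16 and 1.11, and its partner EDS1 had -0.26, 0.33, 1.23 and -0.47. TGA3, which encodes a partner of NPR1 at the PR1 promoter, read 0.00, 0.25, 1.47 and -0.24 and stood more than 2-fold above each other time at 10 h. The course differed among these genes, with NPR3, EDS1 and TGA3 highest at 10 h and PAD4 at 5 h. Genes that modify SA were among the strongest, 5 of 9 higher and 0 lower, with a median of 2.71 at 10 h against 3.55 at 5 h and 1.49 at 24 h. UGT74F2, which glucosylates SA, read 3.93, 5.06, 4.31 and 2.99, the SA sulfotransferase gene SOT12 2.63, 4.89, 2.85 and 0.75, and the SA hydroxylase gene DMR6 2.05, 3.72, 2.90 and 1.95.

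The 3 classical SA marker genes did not share a time course. PR1 read 0.10, 0.71, 2.47 and 2.89, with net signals at 10 h of 106 in untreated and 1195 in treated plants, a 5.55-fold difference, and its untreated signal at 2 h was near background. BGL2, also called PR2, stood at 0.31, -0.05, 0.01 and 0.20, and PR5 at 0.16, -0.25, 0.58 and 0.82. PR1 was thus more than 4-fold higher at 10 and 24 h, while PR2 and PR5 were under 2-fold at each of the 4 times. Over the list of 13 defence output genes, 10 were higher at 10 h and 0 lower, with a median of 1.87. LURP1, a gene of resistance to downy mildew, had 3.65, 3.12, 3.85 and 3.28, and the glutaredoxin gene GRX480, whose product binds TGA factors, had 5.59, 4.88, 4.04 and 4.26. SIB1, a sigma factor binding protein that also binds WRKY33, had a ratio of 2.89 at 10 h.

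WRKY factors, transcription factors of the defence response, counted 17 of 70 higher (24.3%) and 0 lower at 10 h, beside 7.30% and 4.43% of all probes. The family median was 0.15. WRKY75 was highest at 10 h, with 1.26, 2.34, 4.23 and 3.25. WRKY70, a node between SA and jasmonate responses, read 2.87, 1.51, 3.75 and 1.53, so that 2 and 10 h stood above 5 and 24 h. WRKY40 (3.27, 3.74, 3.44 and 1.62) and WRKY38 (2.02, 3.30, 3.19 and 2.30) were highest at 5 h and nearly as high at 10 h. WRKY60 (0.01, 0.89, 2.45 and 1.64) was late. Of 16 genes of pattern-triggered immunity, the response to microbial molecules at the cell surface, 10 were higher and 0 lower, with a median of 1.15 against 0.74 at 5 h and 0.88 at 24 h. The receptor kinase gene FRK1, a common reporter of this response, had -0.07, 0.70, 2.55 and 1.40, with its treated signal at 2 h and its untreated signal at 5 h near background. WAK1, a wall-associated kinase gene, had 0.55, 2.24, 2.63 and 1.38, and FLS2, the flagellin receptor gene, -0.13, 0.36, 1.27 and -0.27. BAK1, the co-receptor of FLS2, stood at 1.35 at 10 h, BIK1, a kinase below them, at 1.54 and the MAP kinase gene MPK11 at 1.70.

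Genes for protein folding in the ER were high at 10 h, in most members above each of the other times. Of 24 genes, 18 were at least 2-fold higher at 10 h and 0 lower, beside 7.30% and 4.43% of all probes, and 10 h was the highest of the 4 times for 21 of 24, beside 29.7% of all probes. BIP3, an inducible HSP70 chaperone of the ER lumen, had a net signal of 61 in untreated and 2977 in treated plants at 10 h, a 20.9-fold difference with a scanner error of 0.465 on the log2 scale. Its ratio at 2 h was 0.03 and at 24 h 0.49, and at 5 h, where the untreated signal was near background, it was at least 3.68-fold higher. BIP1 (-0.83, 1.85, 2.70 and 0.40) and BIP2 (-0.74, 1.79, 2.58 and 0.33) are near-identical copies whose probes may read each other's RNA, which was not tested. SHD, the HSP90 chaperone of the ER, crossed from -2.64 at 2 h through 0.20 at 5 h to 2.61 at 10 h and back to -1.39 at 24 h. Its net signals at 10 h were 656 in untreated and 6927 in treated plants. BIP1, BIP2 and SHD had their highest ratio at 10 h. BIP3 also read highest at 10 h, but its 5 h ratio is a lower bound. At 24 h the BiP genes were within 2-fold of the untreated level and SHD was below it.

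The enzymes that form and rearrange disulphide bonds, and the lectin chaperones that hold glycoproteins, also had their highest ratio at 10 h in most members. Of the protein disulphide isomerase genes, PDIL2-2 had -0.01, 1.85, 2.93 and 2.15, PDIL2-3 -1.02, 1.11, 2.48 and -0.23, and PDIL1-1 -0.36, 0.18, 2.22 and 0.45. ERO1, the oxidase that recharges them, had 0.57, 1.76, 2.09 and 0.92. Calreticulin CRT3 read -0.25, 1.06, 2.35 and 0.42 and calnexin CNX1 -0.46, 1.15, 1.81 and 1.40, while ATERDJ3A, a DNAJ co-chaperone of BiP, read 0.18, 1.10, 2.17 and 0.76. The exceptions, with their highest ratio at 24 h, were CRT1b, PDIL1-3 and SDF2. CRT1b read 0.52 at 10 h and 1.03 at 24 h.

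**Figure D2:**
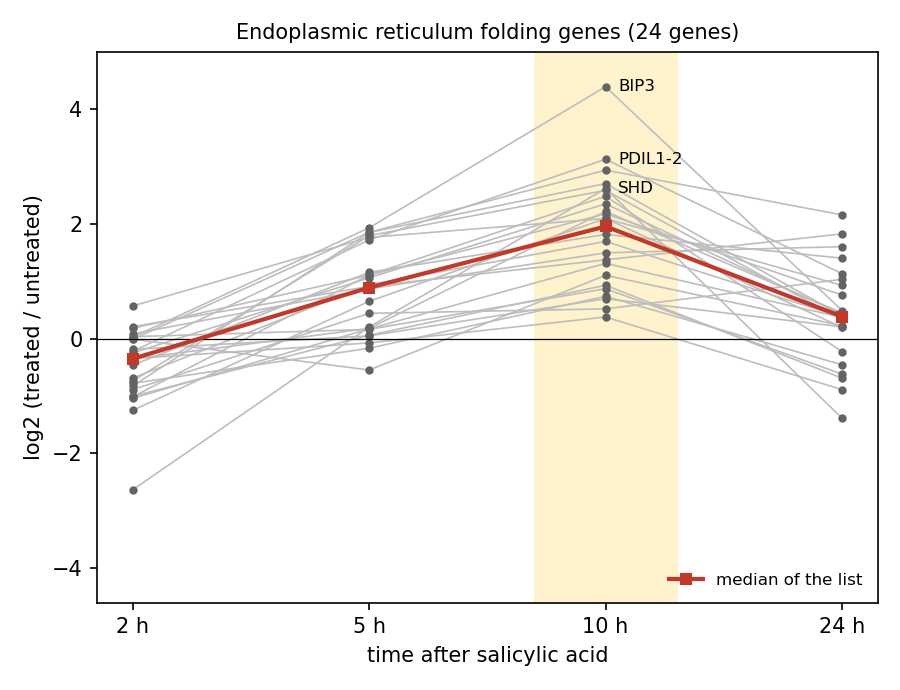
Log2 ratio of SA-treated over untreated plants (vertical axis) at 2, 5, 10 and 24 h (horizontal axis) for the 24 genes of ER protein folding, with 1 line per gene and 1 array per time. The list median is 1.95 at 10 h, against -0.35, 0.89 and 0.38 at 2, 5 and 24 h.

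The unfolded protein response senses the load of unfolded protein in the ER. Its regulators had a lower median at 10 h than the folding genes, 1.0 against 1.95. Of 13 genes 6 were higher at 10 h and 0 lower, with medians of 0.00, 0.72, 1.0 and 0.39. For 7 of the 11 with values at all times 10 h was the highest time, beside 29.7% of all probes. BZIP60, whose RNA is spliced by IRE1 under ER stress, read 2.43, 3.79, 2.94 and 1.94 and so had its highest ratio at 5 h. BZIP28, which encodes a membrane-held factor released by proteolysis, stood between 0.72 and 1.0 at all 4 times. NAC062, another membrane-held factor gene, had 1.54, 1.61, 2.11 and 0.39, IRE1A 0.17, 0.83, 1.29 and -0.26, and the cell death suppressor gene BI1 1.09, 1.23, 1.71 and 1.07. Of 11 genes of ER-associated degradation, which exports misfolded proteins for destruction, 3 were higher and 0 lower: OS9 (0.06, 1.11, 1.33 and 0.41), EBS5 (1.23 at 10 h) and CDC48, the ATPase that pulls proteins out of the membrane (0.04, 0.51, 1.50 and 1.09).

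Downstream of the ER, genes of the translocon and of vesicle transport were higher in smaller amounts. Of 73 genes, in both lists joined after values were seen, 18 were at least 2-fold higher and 0 lower, and 63 had a ratio above 0. For 42 of the 68 with values at all times 10 h was the highest time, beside 29.7% of all probes. The medians were 0.07, 0.26, 0.58 and 0.14. AT3G15980, a coatomer subunit gene of Golgi vesicles, reached 2.59 at 10 h from -0.31 at 2 h and 1.02 at 5 h and stood at 0.14 at 24 h. The cargo receptor gene p24beta2 read -0.48, 0.87, 1.63 and -0.14. AT4G24920, a gamma subunit of the Sec61 channel, was high throughout, at 1.45, 1.65, 1.87 and 1.59.

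The proteasome genes were higher by a small amount. All 39 genes found by their symbols had a ratio above 0 at 10 h, from 0.02 to 2.18 with a median of 0.77. Of these, 9 passed 2-fold upward and 0 downward, and 10 h was the highest time for 30 of 39, beside 29.7% of all probes. The medians at 2, 5 and 24 h were -0.05, 0.12 and 0.55. The largest ratios of the 39 belonged to the ATPase ring genes RPT3 (0.42, 1.39, 2.18 and 0.84) and RPT2a (0.00, 0.15, 1.29 and 0.66) and the core ring genes PAA2 (-0.25, 0.07, 1.66 and 0.64) and PAF1 (0.53, 1.32, 1.37 and 0.74). The lowest, RPT6A, read 0.02, while AT5G20000, which the array also annotates as subunit RPT6a but whose symbol is not in the list, read -0.12, 0.59, 1.61 and 0.61. Genes of cytosolic ribosomal proteins did not share this shift: 1 of 242 was at least 2-fold higher (0.413%), 8 were lower (3.31%), and the median was -0.21. Of 24 autophagy genes 8 were higher (33.3%) and 0 lower, ATG8H reaching 1.86. Of all probes 7.30% were higher and 4.43% lower.

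Heat shock genes counted 17 of 22 higher and 0 lower at 10 h, with medians of 1.21, 1.95, 2.33 and 1.61, and were thus high at all 4 times. The cytosolic HSP70 gene AT3G12580 read 2.24, 4.65, 3.86 and 3.63 and the disaggregase gene HSP101 1.63, 3.42, 3.48 and 2.17. Hop3, a co-chaperone that joins HSP70 to HSP90, was at least 6.93-fold higher at 10 h, its untreated signal being near background, and read 0.42, 1.08 and 0.52 at 2, 5 and 24 h. DREB2A, a transcription factor of drought and heat responses, had 0.82, 0.23, 2.48 and 0.62. Hop3 and DREB2A thus stood more than 2-fold above each other time at 10 h.

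Genes that detoxify small molecules split in both directions. Of 40 glutathione S-transferase genes, 20 were higher and 5 lower at 10 h, with a median of 0.94. GSTF3, which responds to pathogens, had 0.59, 3.51, 3.43 and 2.31, whereas GSTU20 had -0.34, -1.94, -2.99 and -1.82. Of 63 glycosyltransferase genes 19 were higher (30.2%) and 5 lower (7.94%), beside 7.30% and 4.43% of all probes, with a median of 0.18. Genes of tryptophan and camalexin synthesis, the route to the main antimicrobial compound of Arabidopsis, counted 7 of 12 higher and 0 lower, with a median of 1.85 at 10 h against 1.43 at 5 h and 1.02 at 24 h. PAD3, the last enzyme of camalexin synthesis, read 2.22, 4.67, 4.22 and 0.97, and CYP71A13, which acts before it, read 0.09, 1.41, 3.34 and 2.29. TSA1, a tryptophan synthase subunit gene, had 0.83, 2.92, 2.97 and 1.97. Genes of aliphatic and indole glucosinolate synthesis, the other sulphur-containing defence compounds, were divided, 4 of 22 higher and 9 lower, with BCAT4, the first step of methionine chain elongation, at -0.08, -2.23, -2.90 and -1.40.

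Genes of senescence and nutrient salvage were high at 10 h as at the other times: 13 of 15 were higher and 0 lower, with medians of 2.29, 3.04, 2.62 and 2.66. ATAF2, a NAC transcription factor gene, read 6.19, 5.28, 4.21 and 2.93, SAG21 5.22, 5.62, 4.05 and 3.65, and DIN10, a gene induced in the dark and by sugar starvation, 3.61, 3.07, 4.25 and 2.29. SAG12, a late senescence protease gene, stood at -0.16 at 10 h. NYC1, which encodes a chlorophyll b reductase of chlorophyll breakdown, read -0.58, -0.66, 1.85 and -0.01. Of 11 nitrogen genes 5 were higher and 0 lower, with the glutamate dehydrogenase gene GDH2 at 3.79 and the proline dehydrogenase gene ERD5 at 3.18. Of 9 sulphur genes 5 were higher and 0 lower, with the sulphate reduction gene APR3 at 2.68 and the glutathione synthetase gene GSH2 at 2.01.

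Genes of jasmonate, the hormone of responses to wounding and necrotrophs, were under 2-fold in most members. Of 11 synthesis genes 2 were higher (18%), of 8 JAZ repressor genes 1 (12.5%), and of 18 output genes of jasmonate and ethylene 4 higher (22.2%) and 1 lower, beside 7.30% of all probes higher. OPR3, of jasmonate synthesis, read 2.43, 3.86, 2.75 and 1.0 and the repressor gene JAZ1 1.06, 1.66, 2.56 and 0.90. PDF1.2, the defensin marker of joint jasmonate and ethylene action, read -0.05, -0.46 and 0.33 at 2, 5 and 10 h, and VSP2, a wound marker, stood at -1.24 at 10 h. PR4, a chitin-binding protein gene, was high late, at 0.21, -0.21, 2.00 and 3.17. Of 24 genes of abscisic acid and cold 2 were higher (8.33%) and 6 lower (25%), beside 7.30% and 4.43% of all probes. The higher share was thus close to that of all probes. COR15A, a cold protectant of chloroplasts, read 0.74, -2.75, -2.76 and -4.19.

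**Figure D3:**
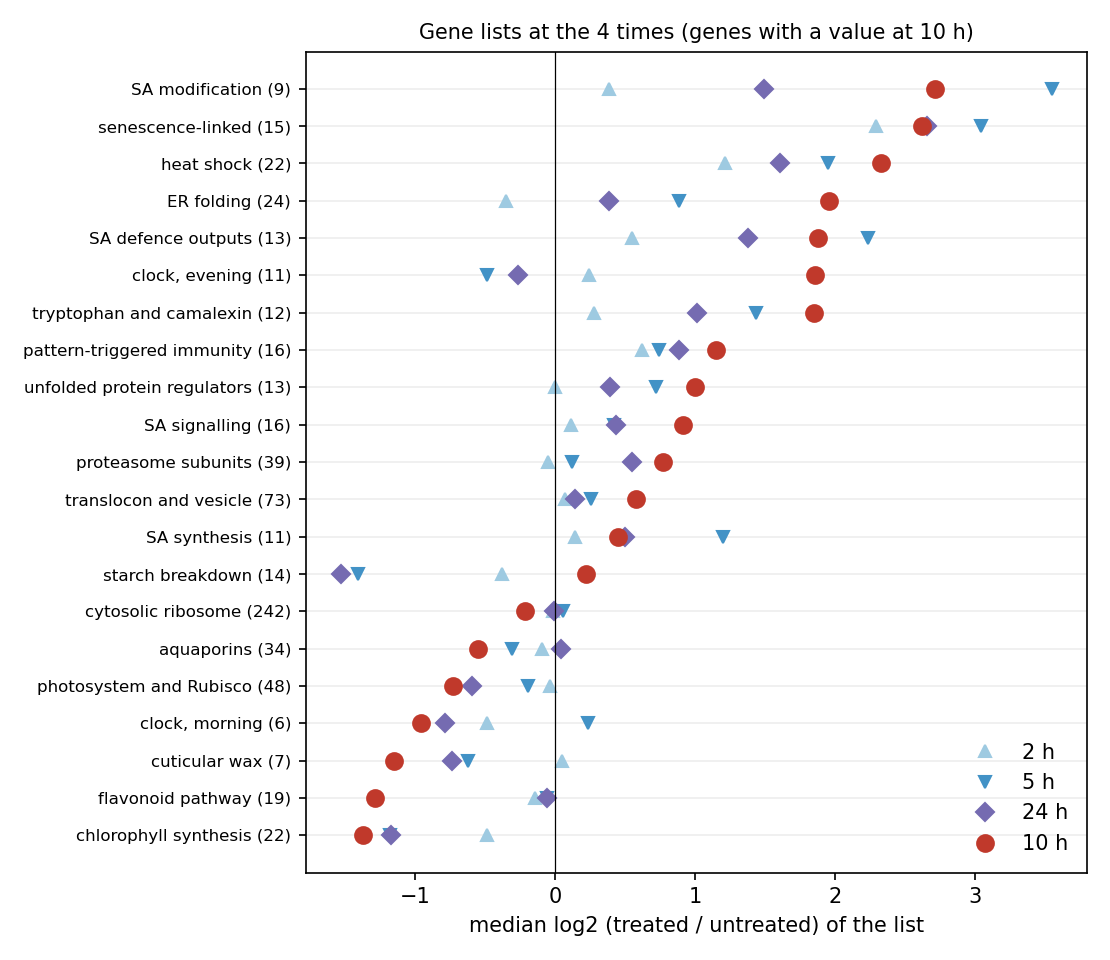
Median log2 ratio of SA-treated over untreated plants for gene lists (rows) at 2, 5, 10 and 24 h, 1 array per time and no error. The median of ER protein folding reads 1.95 at 10 h and that of the evening clock genes 1.86, against 0.38 and -0.27 at 24 h.

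The lowest ratios at 10 h included genes of the cell wall and of light harvesting. XTH31, a wall-loosening enzyme gene, had the lowest ratio of the array, at -1.0, -1.81, -4.08 and -2.25, with net signals at 10 h of 3214 in untreated and 299 in treated plants, 16.9-fold lower. LHCB2.3, an antenna protein of photosystem II, came next, at -0.45, -0.86, -3.97 and -2.42, with net signals of 21837 in untreated and 1905 in treated plants. LHCB3 was at least 6.65-fold lower and LHCA4 at least 3.97-fold lower at 10 h, their untreated spots being saturated, and LHCB4.2 read -0.35, -1.40, -2.19 and -0.26. Of 48 photosynthesis genes, 16 were at least 2-fold lower and 0 higher, beside 4.43% of all probes lower, and 10 h was the lowest time for 25 of 45, beside 32.1% of all probes. A channel was saturated for 20 of the 48, and both for 5, among them RBCS1A, so their ratios are compressed. The list median was -0.73 with all 48 counted and -0.83 without saturated spots. In RNA of whole shoots, fewer cells of a type and less RNA per cell cannot be told apart. Rubisco activase, RCA, was at least 1.92-fold lower, the carbonic anhydrase gene CA1 stood at -1.88 and the photorespiration gene GLDP1 at -1.21.

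Genes of chlorophyll synthesis were low at all 4 times: 7 of 22 were at least 2-fold lower at 2 h, where 2.31% of all probes were, and 16 of 22 were lower at 10 h and 0 higher, with medians of -0.49, -1.18, -1.37 and -1.17. CH1, the chlorophyllide a oxygenase that makes chlorophyll b, read -1.56, -1.01, -3.05 and -1.29, 8.25-fold lower at 10 h. GUN5, a subunit of magnesium chelatase, had -2.13, -1.22, -2.33 and -1.64, and HEMA1, the first committed step of the pathway, -1.85, -0.99, -2.10 and -2.02. GUN4, an activator of magnesium chelatase, stood at -2.19. The transcription factor gene GLK2, which acts on photosynthetic genes, stood at -2.31 and PIF4, of light and temperature responses, at -2.79. Of 37 genes of plastid ribosomal proteins, 5 were lower (13.5%) and 0 higher, beside 4.43% and 7.30% of all probes, with a median of -0.64.

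The flavonoid genes were low at 10 h and close to the untreated level at the other times. Of 19 genes in a list added after their values were seen, 12 were at least 2-fold lower at 10 h and 0 higher. The lowest time was 10 h for 17 of 18, beside 32.1% of all probes, and the medians were -0.14, -0.06, -1.29 and -0.06. TT4, chalcone synthase, the entry enzyme, read -0.69, 0.26, -3.54 and -0.10, with net signals at 10 h of 2096 in untreated and 283 in treated plants, 11.6-fold lower with a scanner error of 0.332. The next steps had the same course, with chalcone isomerase TT5 at 0.00, 0.12, -1.69 and -0.30, its helper CHIL at -0.34, -0.06, -2.33 and -0.23 and flavanone hydroxylase F3H at -0.46, 0.70, -2.63 and -0.05. FLS1, of flavonol synthesis, had -0.42, -0.25, -2.48 and 0.20. On the anthocyanin branch, DFR was at least 3.09-fold lower at 10 h, its treated signal being near background, LDOX stood at -1.29 and GSTF12, of anthocyanin transport, at -2.13. The genes of their known MYB activators did not pass 2-fold, MYB12 at -0.23, MYB11 at -0.18 and MYB111 at -0.17, nor did the light signalling gene HY5 at 0.15. In the wider phenylpropanoid list, which holds 7 of these flavonoid genes beside those of lignin and sinapate synthesis, 1 of 22 was higher and 9 lower, with FAH1, of sinapate synthesis, at -1.80 and CAD5, of lignin synthesis, at 1.21.

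Aquaporins, the channels for water across membranes, were counted in a family also added after values were seen. At 10 h 15 of 34 were at least 2-fold lower (44.1%) and 0 higher, beside 4.43% and 7.30% of all probes. The medians were -0.10, -0.31, -0.55 and 0.04. The plasma membrane genes PIP2A (-0.40, -1.14, -2.79 and -0.67) and PIP2B (-0.52, -1.19, -2.47 and -0.52) and the vacuolar gene DELTA-TIP (-0.66, -1.11, -1.77 and -0.71) were lowest at 10 h. NIP6;1, a boron channel gene, stood at -2.74. At 24 h all 34 were under 2-fold in either direction.

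Genes of cell expansion were lower in part. Of 32 expansin genes, which loosen the wall, 8 were lower (25%) and 0 higher, beside 4.43% and 7.30% of all probes. EXPB1 stood at -2.51, EXPB3 at -2.49 and EXPA5 at -2.31, whereas EXPA8 was lowest at 5 h (-0.79, -3.55, -1.71 and -0.40). Of 68 SAUR genes, small genes induced by auxin, 15 were lower (22.1%) and 1 higher (1.47%). AT5G18030 stood at -2.76, SAUR24 at -2.59, SAUR23 at -2.48 and SAUR19 at -2.45. These SAUR copies are close in sequence and their probes may read each other's RNA, which was not tested. AXR3, an Aux/IAA repressor of auxin signalling, had 0.22, -0.20, -2.59 and -1.03, while IAA28 of the same family stood at 1.76. Xyloglucan enzymes were split, 5 of 33 higher and 5 lower: XTH6 read -1.19, -1.59, -2.90 and -1.04 and XTH32 stood at -2.33, but XTH10 read 1.65, 3.75 and 3.47 at 5, 10 and 24 h, XTH30 stood at 3.15 and TCH4 at 2.32. Of 7 genes of cuticular wax, 5 were lower and 0 higher, and 10 h was the lowest time for all 7, beside 32.1% of all probes. KCS1, of very long chain fatty acid elongation, read 0.23, -0.66, -2.38 and -0.87. Of 20 histone genes and 30 cyclin genes, 0 passed 2-fold in either direction.

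Genes of the circadian clock, the oscillator that gives plant genes their daily rhythm, differed in direction at 10 h by their phase. Of 11 genes that are known to be expressed late in the day, 7 were at least 2-fold higher at 10 h and 0 lower. The highest time was 10 h for 10 of 11, beside 29.7% of all probes, and the medians were 0.24, -0.49, 1.86 and -0.27. TOC1, the evening repressor, read 0.33, 0.03, 2.22 and 0.02, with net signals at 10 h of 84 in untreated and 786 in treated plants, 4.65-fold higher. PRR5, a related repressor, read 0.36, -1.53, 1.93 and -1.74. ELF3 (0.25, -0.35, 1.89 and -0.68), ELF4 (0.04, -0.49, 1.59 and -0.09) and PCL1 (1.74, 0.27, 2.55 and 0.25), the 3 genes of the evening complex, were each highest at 10 h. PRR3, a partner of TOC1, was at least 3.62-fold higher at 10 h with an untreated signal near background, and GRP7, an RNA-binding protein of the evening, read 0.57, -1.57, 2.53 and -1.61. GI, also of the evening, stood at 0.24, -0.92, 0.38 and -0.77, and FKF1 at 0.61 at 10 h. PRR5 and GRP7 were thus more than 2-fold lower at 5 and 24 h and more than 2-fold higher at 10 h.

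The morning genes had ratios below 0 at 10 h. Of 6, 3 were at least 2-fold lower at 10 h and 0 higher, with medians of -0.49, 0.23, -0.96 and -0.79. The lowest time was 10 h for 2 of the 5 with values at all times, beside 32.1% of all probes. LHY, a dawn repressor of TOC1, read -0.79, 1.2, -2.57 and 0.86, with net signals at 10 h of 571 in untreated and 129 in treated plants. Its partner CCA1 had -1.78, 0.65, -1.69 and -0.79 and RVE8, an activator of evening genes, -0.34, 0.37, -1.09 and 0.75. RVE1 stood at -0.82 at 10 h, PRR9 at -0.79 and PRR7 at -0.56, all under 2-fold. The labels give no hour of sampling and do not say that treated and untreated plants were taken at the same hour, and the part of that in these ratios was not tested. Clock genes were mixed on the array of plant CA32F4, which had no SA. There LHY read 4.01, PRR5 -2.67 and GRP7 -3.55, while TOC1, ELF3, ELF4 and PRR3 were under 2-fold, at -0.47, -0.52, -0.91 and -0.49. The array of CA32F3 had all of these under 2-fold. On it LHY read -0.02, PRR5 0.54 and GRP7 0.75, and TOC1, ELF3, ELF4 and PRR3 0.20, 0.33, 0.20 and 0.50. Of the genes in the next paragraph, COL2 read 3.12, SEX1 -2.36, GBSS1 3.00 and CT-BMY 1.65 on the array of CA32F4. On the array of CA32F3 these 4 read -0.55, 0.21, -0.26 and -0.26. The reason for these values was not tested.

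Several genes of light signalling and starch turnover, which are known for daily rhythms, had a 10 h ratio opposite in sign to that at 5 h. In the BBX family of zinc finger factors, added after values were seen, 2 of 29 were higher (6.90%) and 9 lower (31.0%) at 10 h. Of all probes 7.30% were higher and 4.43% lower, so the higher share was close to that of all probes. COL2, a relative of the flowering regulator CONSTANS, read -1.80, 0.48, -3.33 and 0.17, BBX28 0.45, 0.23, -2.83 and 0.34, and STH -0.43, 1.12, -2.44 and 0.12. BBX16 was below 0 at each time, at -1.53, -0.67, -3.22 and -1.07. COR27, a cold and light regulated gene known to act on TOC1 and PRR5, read -0.68, 2.83 and 0.70 at 5, 10 and 24 h. JMJD5, a histone demethylase gene of the evening, read 0.11, -0.03, 2.23 and 0.03 and was thus near the untreated level at 5 h. Of 14 genes of starch breakdown, also added later, 3 were higher and 1 lower at 10 h, against 9 lower at 5 h, where 3.66% of all probes were lower, and 10 lower at 24 h, where 5.63% were. SEX1, the glucan water dikinase that starts starch breakdown, had -0.86, -2.29, 1.25 and -2.93, the debranching enzyme gene ISA3 0.08, -1.61, 1.15 and -1.10 and the beta-amylase gene CT-BMY -1.69, -0.73, 1.10 and -1.56. GBSS1, which makes the amylose of starch granules, ran the other way, at -0.59, 1.65, -2.32 and -0.14. Catalase genes were also opposed: CAT3 read -0.07, -0.72, 1.57 and 0.30 and CAT2 -0.88, 1.02, -1.47 and 0.30.

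**Figure D4:**
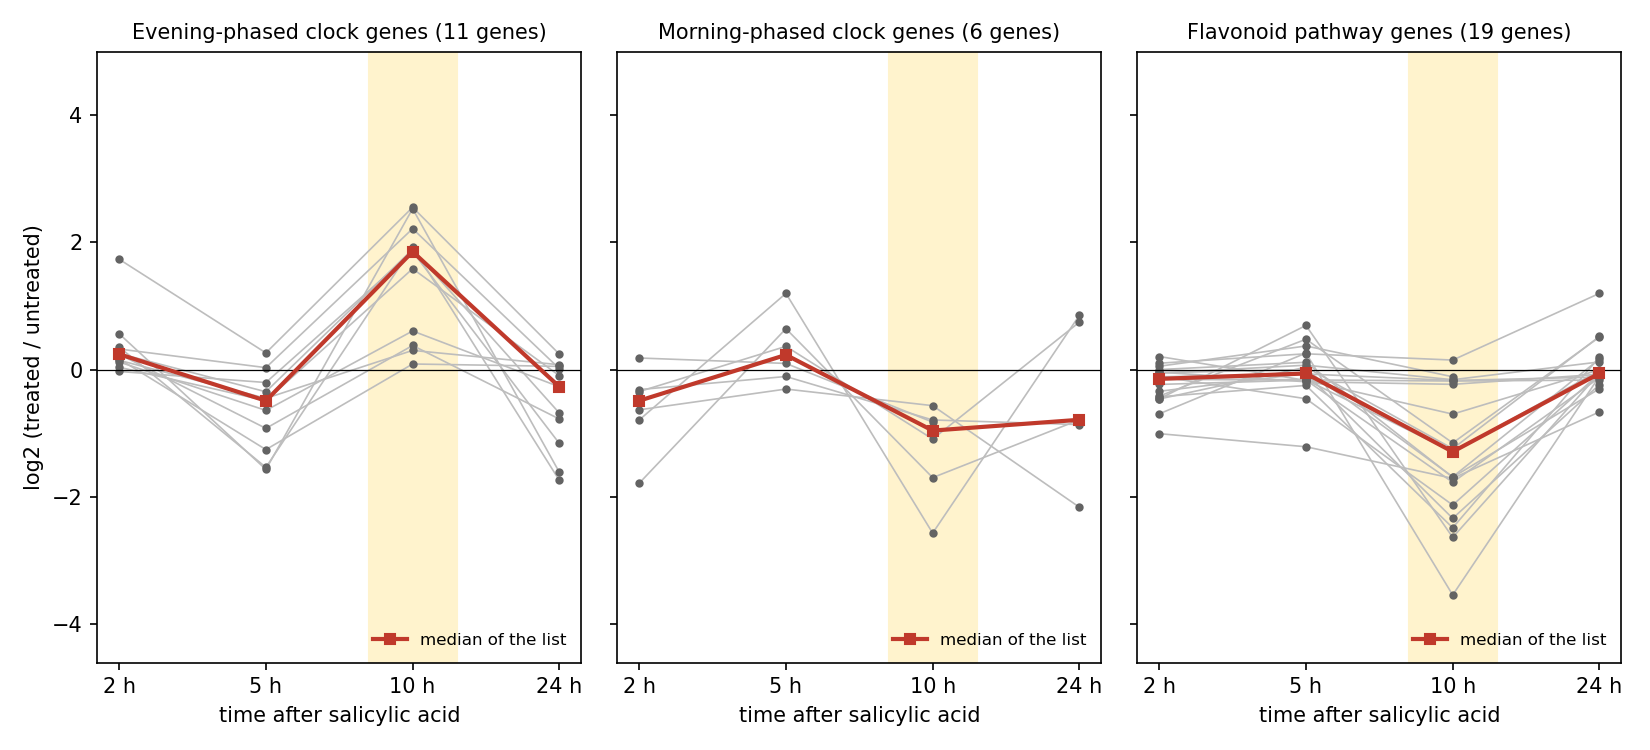
Log2 ratio of SA-treated over untreated plants at 2, 5, 10 and 24 h for clock genes of the evening and the morning and for flavonoid genes, with 1 line per gene and 1 array per time. Evening genes such as TOC1 (2.22 at 10 h) and flavonoid genes such as TT4 (-3.54 at 10 h) depart from 0 at 10 h in opposite directions.

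What set 10 h apart was counted as peaks and troughs. A peak is a probe at least 2-fold higher at 10 h whose log2 ratio lay at least 1 above that of each other time, and a trough is the same downward. Of 19736 probes with values at all 4 times, 178 (0.902%) had a peak and 129 (0.654%) a trough at 10 h. By the same rule 66 probes (0.334%), 80 (0.405%) and 73 (0.370%) had a peak at 2, 5 and 24 h, and 14 (0.0709%), 44 (0.223%) and 178 (0.902%) had a trough. These counts depend on the spread of each array: with the 4 arrays scaled to a common spread, the peaks were 149, 120, 17 and 16 at 2, 5, 10 and 24 h so that 10 h no longer had the most. The troughs under that scaling were 77, 78, 17 and 11, and without it 24 h had more troughs than 10 h. With the scanner software's ratios the 2 h array had 748 peaks against 405 at 10 h, and with an offset of 16 it had 185 against 258. Of the 178 peaks, 9 had an untreated signal near background at 10 h. For others, such as BIP3 and AT3G28510, it was near background at 5 h, so their 5 h ratio is a lower bound. With only probes well above background in both channels at all 4 times, 154 had a peak at 10 h. Of the ER folding genes with values at all times, 8 of 24 were peaks, and of the evening clock genes 6 of 11, beside 0.902% of all probes. Troughs were 9 of 18 flavonoid genes, 7 of 26 BBX genes and 7 of 22 phenylpropanoid genes, beside 0.654% of all probes. The flavonoid and phenylpropanoid lists share genes, TT4 among them, so some troughs are counted in both. These list counts are without scaling between arrays and were not made with it. With scaling the ER folding medians were 0.83 at 5 h and 1.17 at 10 h, against 0.89 and 1.95 without. Those of the evening clock genes were -0.45 and 1.11, against -0.49 and 1.86. Those of the flavonoid genes were -0.05 and -0.77, against -0.06 and -1.29. All of these peaks and troughs come from the same 4 arrays as the courses given above.

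**Figure D5:**
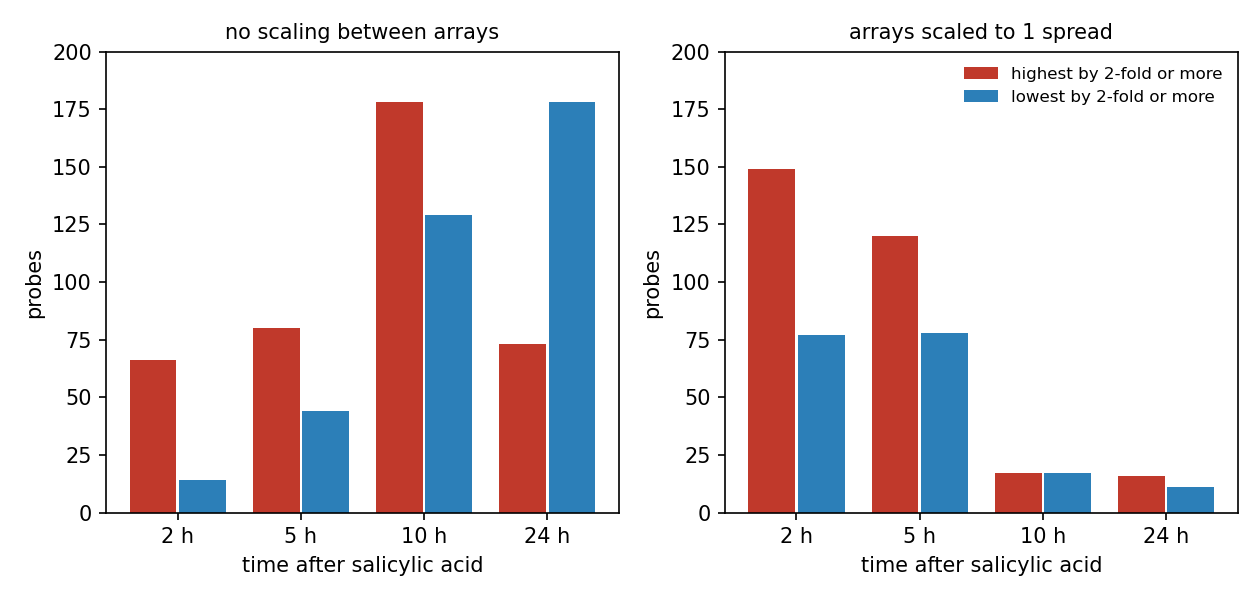
Number of probes with a peak and with a trough at each time among 19736 probes with values at all 4 times, with ratios as normalized within each array on the left and with the arrays scaled to 1 spread on the right. On the left 10 h has 178 peaks, and on the right it has 17 while 2 h has 149.

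Among the peaks, AT5G23240 lay furthest above the other times. It read 0.07, -2.14, 4.37 and -1.84, with net signals at 10 h of 79 in untreated and 3616 in treated plants, 20.6-fold higher with a scanner error of 0.432. BGLU25, a beta-glucosidase gene, read -0.57, 0.63, 3.46 and 0.47, and BT4, a relative of BT2, 0.90, 0.44, 3.25 and 0.05. AT1G07050 had -1.84, 3.01 and -0.88 at 5, 10 and 24 h, CCL 0.74, -0.55, 2.61 and -0.56, and AT4G16146 0.13, -0.80, 2.47 and -0.31. AT4G33980 was at least 6.11-fold higher at 10 h, its untreated signal being near background, and read -1.01 at 5 h. AT3G22910, annotated as a plasma membrane calcium pump, read 0.21, 0.49, 2.81 and 0.74. AT3G28510, which stood at 4.29 at 10 h, was at least 3.91-fold higher at 5 h, with 0.36 at 2 h and 2.02 at 24 h. GER3, a germin-like protein gene, read -0.49, -1.10, 1.66 and -2.59. At 24 h these peaks, except AT3G28510, were within 2-fold of the untreated level or below it. Peaks were chosen for standing above each other time, 24 h included, so this follows in part from the choice.

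Among the troughs outside the groups above, AT3G01060 read -0.75, -0.81, -3.47 and -0.52 and AT3G21670, annotated as a nitrate transporter, -0.87, -0.58, -3.40 and -0.79. FBA1, a plastid aldolase gene of the Calvin cycle, read -0.67, -0.15, -2.65 and -0.10, and G-TMT, the last step of gamma- to alpha-tocopherol conversion, -0.01, 0.31, -2.05 and 0.30. LEA3 had 0.04, 0.91, -2.53 and -0.66, the arginase gene ARGAH2 -0.11, -0.11, -2.12 and 1.10 and AT3G56290 -0.06, 0.78, -2.10 and 1.03. ACA1, a carbonic anhydrase gene, had -1.72, -0.41, -2.93 and -1.32. Except for ACA1, these genes were within 2-fold of the untreated level at 2 and 5 h. Some genes lower at 10 h were low at 5 h as well and were not troughs, such as ADS1, a fatty acid desaturase gene (-1.55, -3.33, -2.92 and 0.50), and NCED4, a carotenoid cleavage gene (-1.09, -2.24, -2.91 and 0.64).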

How the data were processed

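Each array was a 2-colour Agilent array with 21500 probes other than controls, hybridised, per the labels, with linearly amplified RNA extracted with Trizol. The deposited array files hold, per the file headers, spot intensity (mean) and local background intensity (median) in both dyes, spot marks, and the scanner software's log10 ratio of Cy5 over Cy3 with its error. The deposited series table holds 1 linear ratio per probe; the authors' normalization of it is not stated in the labels or headers, its median at 10 h was 0.966, and its log2 correlated with the computed values at r = 0.993 over probes.

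Log2 ratios were computed with limma 3.58.1 in R 4.3.3, using normexp background correction (offset 50) and then a loess curve per array. Outlier and control spots were left out. Tables and figures used Python 3.11.15, pandas 2.3.3 and matplotlib 3.10.9. The "at least" folds compare normalized channel means. A channel without the well-above-background mark enters at its own signal or at the lowest signal well above background, whichever is higher. Where its own signal is the higher, the bound equals the ratio. A saturated spot is taken at its value. These folds are open to dye bias. Probes had 1 locus in 21342 cases, 21157 of them in RefSeq's TAIR10.1 gene table, which served to name genes. No build is named in the files, and promoter and protein sequences were not analysed here.

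No test, p-value or SD can be made from 1 array. The members and lists were chosen with earlier results of these data known. The flavonoid and starch lists and the BBX and aquaporin families were added, and the translocon and vesicle lists joined, after values were seen, and family members found by name patterns were removed where their annotation named another protein. Named genes were the 15 highest and 15 lowest ratios, the 15 largest peaks and 15 largest troughs, the 4 members of each list furthest from 0 at 10 h, and SIB1, PR1, PR2, PR5, ICS1, NPR1, WRKY70 and PDF1.2. Other genes named were chosen from the lists after their values were seen. Alternatives were another offset (16), no background correction, median centring, scaling between arrays, the scanner software's ratio, the deposited ratio, filters on dim and on saturated probes, and leaving out the 2 h array.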

Additional observations from a re-analysis of the deposited data

Results flagged for a closer look

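The genes below are those named in the text that were at least 2-fold in 1 direction at 10 h and at least 2-fold in the opposite direction at another SA time. Over all probes, 21, 21 and 53 were higher at 10 h and lower at 2, 5 and 24 h, and 2, 9 and 9 were lower at 10 h and higher at those times. With 1 array per time the difference was not tested. Higher at 10 h were AT5G23240 at a log2 ratio of 4.367, AT1G07050 at 3.015, SHD at 2.613, PDIL2-3 at 2.477, AT4G33980 at 2.611 (untreated signal near background), GRP7 at 2.530, PRR5 at 1.927, PRR3 at 1.855 (untreated signal near background), GER3 at 1.656, SEX1 at 1.248, ISA3 at 1.150, CT-BMY at 1.102 and AT1G54410 at 1.025. Lower at 10 h and higher at 5 or 24 h were LHY at -2.566, STH at -2.442, GBSS1 at -2.324, ARGAH2 at -2.122, AT3G56290 at -2.099 and CAT2 at -1.466. AT1G54410, annotated in the files without a symbol, read -1.60, -1.40 and -2.58 at 2, 5 and 24 h. The labels give no hour of sampling, and the part of the hour in these values was not tested.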

How the results depend on the processing

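No paired analysis was possible because each time had 1 array and no result comes from a test. Of the 1568 higher probes, 951 lower probes, 178 peaks and 129 troughs at 10 h, the counts moved by more than 1.5 times under 3 alternatives. Scaling the arrays to a common spread gave 612 higher, 254 lower, 17 peaks and 17 troughs, since it shrinks the 10 h array, which has the widest spread. Median centring gave 304 peaks. The scanner software's ratio gave 1503 lower, 405 peaks and 232 troughs. Under the other alternatives the counts stayed within 1.5 times, and leaving out the dim 2 h array gave 209 peaks and 157 troughs. All 208 named genes past 2-fold at 10 h kept their sign under every alternative in which they had a value, and 154 still passed 2-fold with the arrays scaled and 202 under median centring. The 10 h median of ER folding ranged from 1.17 to 2.1 over the alternatives, that of the evening clock from 1.11 to 2.82 and that of the flavonoid list from -1.94 to -0.77. The photosynthesis median ranged from -1.11 to -0.43 at 10 h, and at 2 h it read 0.92 under median centring. The untreated signal near background at 2579 probes limits ratios upward at 10 h.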

Other observations

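Mitochondrial stress genes were described by size alone: at 10 h 6 of 10 passed 2-fold upward and 1 downward, with a median of 1.25. NDB2, an external NADH dehydrogenase gene, stood at 2.68 and AOX1A, the alternative oxidase gene, at 1.85. Of 41 genes of the cysteine-rich receptor kinase family, 5 were higher (12.2%) and 2 lower (4.88%) at 10 h, beside 7.30% and 4.43% of all probes. The lower share was thus close to that of all probes. Of 6 sigma factor genes of plastid RNA polymerase, whose products SIB1 is known to bind, 0 were higher and 1 lower, beside the same shares of all probes. Of 13 genes of starch synthesis, in a list added after values were seen, 0 were higher and 4 lower, with the starch synthase genes SS1 at -1.70 and SS2 at -1.45 and the pyrophosphorylase subunit gene APL1 at -1.55.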
